A study of Mus musculus with 24 samples.

Results

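The collagen chains are the 44 genes of the expression tables whose symbol is Col, a number, the letter a and a number, out of 56941 genes in all. They were sorted by protein family into 11 fibrillar chains, 8 basement membrane chains and 25 other chains. Expression was measured by bulk RNA sequencing (RNA-seq) in 2D tissues of C2C12, a mouse myoblast line that fuses into contractile muscle fibers. All tissues, control tissues included, were of the genotype ChR2::tdTomato, which carries a blue light-gated ion channel joined to a red fluorescent protein. They were grown on fibrin hydrogel and kept in differentiation medium with horse serum and IGF-1. The 4 conditions were an unstimulated control and daily light for 30 min at 1 Hz, 4 Hz, or 10 Hz, each with 6 libraries from separate tissues, giving 24 libraries. The study observed spontaneous twitch in every condition, so the control is a tissue without light pulses and not a resting tissue. Muscle in culture holds no nerve, blood vessels or immune cells, which limits it as a model of exercised muscle.

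Collagens are the main structural proteins of the extracellular matrix. Chains wind around each other into a rope-like helix, which needs glycine at regular spacing (Gly-X-Y repeats). Some types are built from more than 1 kind of chain. Fibrillar collagens (types I, II, III, V, XI, XXIV, and XXVII) form the cables of connective tissue, and type IV forms the sheet of the basement membrane that wraps each muscle fiber. Type VI, a beaded microfilament built of the α1, α2 and α3 chains, lies next to that sheet, and inherited loss of any of these chains causes muscle weakness. Type XVIII is a basement membrane collagen that carries heparan sulfate, while types XII, XIV, XVI, and XX sit on the surface of fibrils or alongside them.

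The coding exons show what the classes share. In fibrillar chains, 48.8% of internal coding exons were exactly 54 bases long, or 18 codons, against 4.43% in basement membrane chains, 16.0% in the other chains and 0.428% in the other protein-coding genes (GENCODE M39 annotation of GRCm39). The lines give 1 helix-coding exon of chains described further on, 5′ to 3′ on the coding strand, with every in-frame glycine codon in capitals.
Col1a2, exon 8, chr6:4515481-4515534 (+): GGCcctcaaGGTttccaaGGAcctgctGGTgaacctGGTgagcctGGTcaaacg
Col3a1, exon 6, chr1:45364520-45364573 (+): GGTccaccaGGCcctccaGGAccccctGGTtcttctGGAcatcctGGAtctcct
Col5a2, exon 6, chr1:45474052-45474105 (-): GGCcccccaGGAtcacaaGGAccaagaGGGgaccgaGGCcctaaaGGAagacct
Col6a1, exon 9, chr10:76555457-76555510 (-): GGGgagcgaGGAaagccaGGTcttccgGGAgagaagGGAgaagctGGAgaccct
Col4a1, exon 15, chr8:11289827-11289877 (-): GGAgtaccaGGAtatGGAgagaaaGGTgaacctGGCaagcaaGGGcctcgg
Col4a2, exon 15, chr8:11459422-11459472 (+): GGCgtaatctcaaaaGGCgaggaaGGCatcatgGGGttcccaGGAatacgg
The exons of Col1a2, Col3a1, Col5a2, and Col6a1 were chosen as the first of 54 bases in which the glycine codons recur without a break. Those of Col4a1 and Col4a2, of 51 bases, were chosen because they break the spacing, a known property of type IV chains. The contrast between these lines comes from the choice and is not a measured difference between classes.

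Several chains lie next to their partners in the genome. Col4a1 and Col4a2 sit head to head on chromosome 8, with starts 355 bases apart and their first bases overlapping, and share 1 control region. Col6a1 and Col6a2 lie on the same strand of chromosome 10 with 83.9 kb between them, while Col6a3 is on chromosome 1. Col3a1 and Col5a2 are neighbors on chromosome 1 with 16.7 kb between them. The window of 300 bases around the Col4a1 start is printed because it holds part of this shared region. It runs from 250 bases before to 50 after the start (RefSeq, GRCm38.p6, chr8:11312777-11313076, minus strand). The letters CCAAT and GGGCGG, on either strand, are in capitals.
Col4a1 promoter: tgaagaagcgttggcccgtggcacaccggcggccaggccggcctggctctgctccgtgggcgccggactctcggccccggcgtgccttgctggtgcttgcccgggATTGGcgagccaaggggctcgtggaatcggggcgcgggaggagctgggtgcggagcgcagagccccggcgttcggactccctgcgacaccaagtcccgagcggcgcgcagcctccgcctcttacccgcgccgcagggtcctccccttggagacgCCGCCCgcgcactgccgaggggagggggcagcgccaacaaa
Such windows were found by symbol for 35 chains (38 windows). GGGCGG or its reverse complement stood in 60.5% of them, against 35.7% of all 32851 windows of this length. The shares were 34.2% and 37.4% for CCAAT, 13.2% and 13.6% for TATAAA, and 23.7% and 21.0% for CAGACA. These are counts of letters and not of bound sites.

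Total counts ran from 4.09 to 15.19 Mcounts (mega counts) per library, with a median of 7.48 Mcounts. Muscle fiber markers were abundant in every library, with a summed level of 9352 TPM (a transcript level scaled for both transcript length and library size) or more over 11 genes. The fibroblast list summed to 26.6 to 61.5 TPM, most of it from Dcn. Condition means were 3.89 to 7.60 TPM for Pdgfra, 2.58 to 7.78 TPM for Pdgfrb, and at most 1.16 TPM for Dpt. Lum, Thy1, Fap, and Tcf21 had a mean of at most 0.180 TPM in any condition. The endothelium list stayed at or below 0.855 TPM and the adipocyte list at or below 1.61 TPM. Ptprc and Adgre1 of the macrophage list had a mean of at most 0.0146 TPM in any condition. That list came almost wholly from Cd68, a lysosomal protein, at 119 TPM over all libraries. The libraries also differed in a technical respect. RNAs without a poly(A) tail, such as Rn7sk and Rpph1, made up 98.4 to 169 CPM (counts scaled to library size) of the control libraries, 15.03 to 70.6 at 1 Hz, 18.3 to 50.9 at 4 Hz, and 38.4 to 272 at 10 Hz (21 genes). The 1 Hz and 4 Hz libraries did not overlap control in this share. The labels state that samples of low input were depleted of ribosomal RNA in place of poly(A) selection, and do not say which.

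Counts were sufficient to test 23 of the 44 chains, namely 7 fibrillar, 4 basement membrane, and 12 other chains. The other 21 chains had from 0 to 169 counts summed over all 24 libraries and a mean of at most 0.325 TPM. Col6a5 and Col9a1 had no count in any library. The untested chains were the fibrillar Col2a1 of cartilage, Col11a1, Col24a1, and Col27a1, the basement membrane chains Col4a3, Col4a4, Col4a6, and Col15a1, and Col6a4, Col6a5, Col6a6, Col8a2, Col9a1, Col9a2, Col10a1, Col13a1, Col19a1, Col22a1, Col23a1, Col25a1, and Col28a1. Values are in CPM after TMM scaling where a gene is compared between conditions, and in TPM where genes are compared with each other.

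Col3a1, which forms type III fibrils, was the most abundant chain, with a mean of 123.8 TPM over the 24 libraries. Col5a1 followed with 57.0 TPM, then Col1a2 with 52.1 TPM and Col5a2 with 31.5 TPM. Col1a1 was far lower, at 5.02 TPM, although type I collagen is normally assembled from more α1 than α2 chains. Among basement membrane chains the order was Col18a1 (32.3 TPM), Col4a1 (26.1 TPM), Col4a2 (16.9 TPM), and Col4a5 (2.31 TPM). Among the other chains it was Col6a3 (34.0 TPM), Col6a1 (28.4 TPM), Col12a1 (18.8 TPM), and Col6a2 (11.3 TPM). In control tissues Col4a1 ranged from 12.8 to 25.5 TPM and Col4a2 from 10.1 to 19.3 TPM, so these neighbors in the order overlapped.

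**Figure D1:**
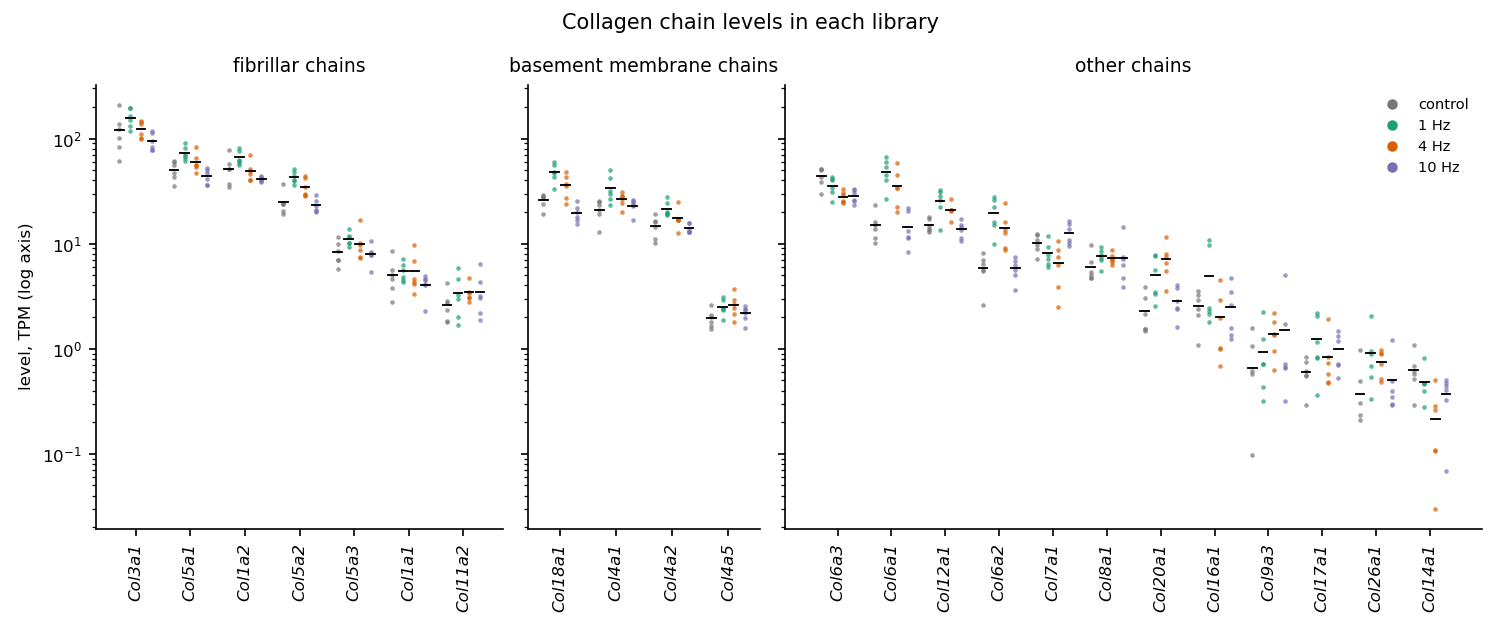
Level of each tested chain in TPM on a log axis, by class, with 1 point per library, a black line at each condition mean, and colors for the 4 conditions. Values of 0 (at most 1 library per chain) are not drawn, and Col3a1 lies highest while Col1a1 lies far below Col1a2.

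The mean share of all counts taken by collagen was highest at 1 Hz. The 44 chains held 0.141% ± 0.0316 of all counts in control (SD, n = 6), 0.214% ± 0.0362 at 1 Hz, 0.178% ± 0.0415 at 4 Hz, and 0.128% ± 0.0117 at 10 Hz. Control libraries ranged from 0.106% to 0.194% and 1 Hz libraries from 0.174% to 0.269%, so these groups overlapped. On the TPM scale the sums were 431 ± 111 in control, 628 ± 110 at 1 Hz, 496 ± 98.0 at 4 Hz, and 370 ± 38.9 at 10 Hz. Fibrillar chains made up most of the sum in each condition, with 263, 362, 287, and 219 TPM in the same order.

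Of the 23 tested chains, 12 were higher and 0 lower in the 1 Hz libraries than in control. The small RNA share also differed without overlap between these groups, and frequency and share cannot be told apart here. With that share as a covariate 0 chains were called, at a median log2 fold change of 0.56. A call needed an adjusted p under 0.05 in edgeR's quasi-likelihood test together with a log2 fold change beyond 0.5 in size, and 9.34% of all 13318 genes tested were called higher and 8.99% lower. DESeq2 called the same 12 chains. The median log2 fold change was 0.50 over the tested chains and -0.01 over all genes. Higher calls comprised 3 of 7 fibrillar, 4 of 4 basement membrane, and 5 of 12 other chains. RNA was taken from whole tissues, in which fewer cells of a type and less RNA per cell cannot be told apart.

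Col6a1 and Col6a2, the α1 and α2 chains of type VI collagen, rose most. Col6a1 was at 29.2, 38.2, and 62.8 CPM (lowest, median, and highest) in control and at 73.8, 138, and 192 CPM at 1 Hz. Col6a2 was at 7.84, 16.4, and 21.3 CPM in control and at 27.0, 53.8, and 78.6 CPM at 1 Hz. For both chains every 1 Hz library lay above every control library. The log2 fold changes were 1.78 ± 0.27 (SE, edgeR adjusted p = 2.56e-05) for Col6a1 and 1.82 ± 0.27 (edgeR adjusted p = 2.21e-05) for Col6a2.

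The α3 chain did not follow. Col6a3 was at 96.7, 140, and 188 CPM in control and at 101, 127, and 168 CPM at 1 Hz, so the groups overlapped throughout. Its log2 fold change was -0.10, with a 95% interval from -0.41 to 0.22 (edgeR adjusted p = 0.643). The interval lies wholly below that of Col6a1, which ran from 1.22 to 2.33.

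**Figure D2:**
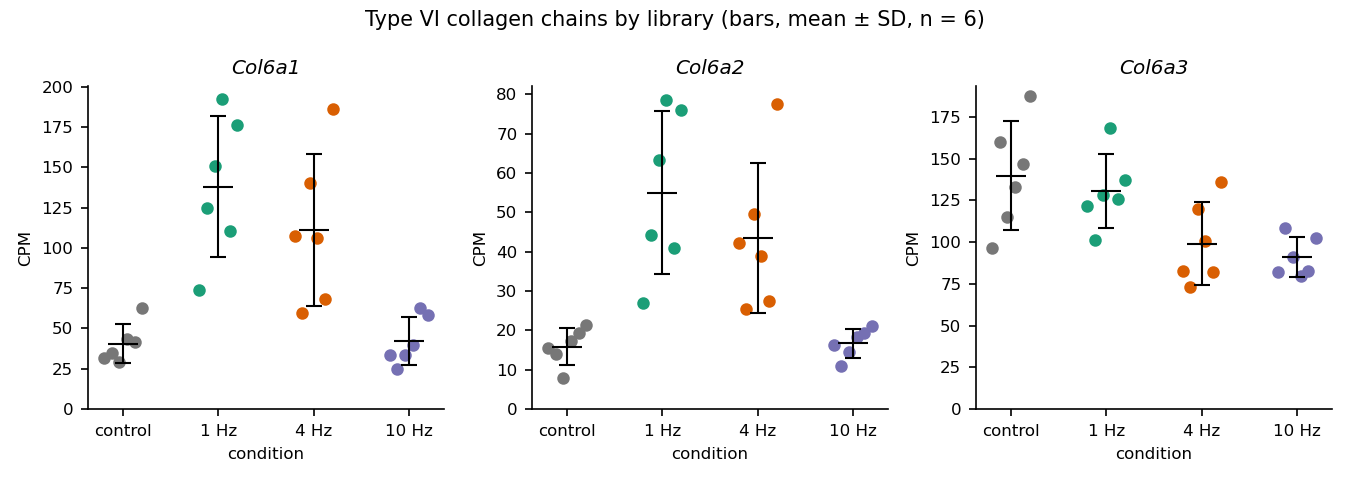
CPM of Col6a1, Col6a2, and Col6a3 in each library, with 6 points per condition and bars for the mean ± SD. Col6a1 and Col6a2 are high at 1 Hz and 4 Hz and near control at 10 Hz, while Col6a3 has medians of 140 CPM in control, 127 at 1 Hz, 91.5 at 4 Hz, and 87.0 at 10 Hz.

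Every tested basement membrane chain rose at 1 Hz. Col18a1, whose end fragment is endostatin, was at 53.4, 70.1, and 74.1 CPM in control and at 95.8, 134, and 194 CPM at 1 Hz, with no overlap and a log2 fold change of 1.10 ± 0.16 (edgeR adjusted p = 1.67e-05). The chains of type IV changed less. Col4a1 was at 60.7, 84.1, and 112 CPM in control and at 102, 128, and 168 CPM at 1 Hz (log2 fold change 0.65 ± 0.13, edgeR adjusted p = 0.000428). Col4a2 was at 46.8, 63.6, and 82.2 CPM in control and at 82.7, 85.2, and 123 CPM at 1 Hz (0.61 ± 0.14 on the log2 scale, edgeR adjusted p = 0.00177). The Col4a2 groups did not overlap, while the lowest 1 Hz library of Col4a1 lay under the highest control library. Col4a5, which pairs with α3 and α4 or with α6, rose by 0.50 ± 0.16 on the log2 scale (edgeR adjusted p = 0.0137). That call sat at the limit and was lost on leaving out control replicate 1, 2, 3, or 4 or 1 Hz replicate 2 or 4 (log2 fold changes of 0.43 to 0.50). Offsets for GC content and length ended the 1 Hz calls of Col4a1, Col4a2, and Col4a5, with 0.46 for Col4a1.

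Among fibrillar chains Col5a1 and Col5a2 of type V and Col3a1 of type III rose, while the third chain of type V, Col5a3, was not called. Col5a2 was at 91.6, 103, and 153 CPM in control and at 156, 187, and 238 CPM at 1 Hz, with no overlap (log2 fold change 0.86 ± 0.13, edgeR adjusted p = 2.66e-05). Col5a1, its partner in type V, was at 143, 198, and 242 CPM in control and at 268, 297, and 407 CPM at 1 Hz, again with no overlap (0.75 ± 0.15 on the log2 scale, edgeR adjusted p = 0.000391). Type V controls the start and width of fibrils. Col3a1 was at 211, 281, and 486 CPM in control and at 352, 448, and 579 CPM at 1 Hz, with overlap (0.59 ± 0.18 on the log2 scale, edgeR adjusted p = 0.0123). The type I chains were not called. Col1a2 was at 127, 184, and 272 CPM in control and at 205, 227, and 307 CPM at 1 Hz, and its log2 fold change of 0.43 ± 0.15 (edgeR adjusted p = 0.0251) was below the limit of 0.5. Col1a1 was at 11.9, 19.4, and 26.2 CPM in control and at 18.0, 21.3, and 30.3 CPM at 1 Hz (0.27 ± 0.23 on the log2 scale, edgeR adjusted p = 0.374).

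Of the remaining chains, Col12a1, which coats fibrils under tension, rose most clearly. It was at 39.7, 47.4, and 52.7 CPM in control and at 76.1, 109, and 148 CPM at 1 Hz, with no overlap (log2 fold change 1.28 ± 0.16, edgeR adjusted p = 2.75e-06). Col26a1 rose by 1.51 ± 0.40 on the log2 scale (edgeR adjusted p = 0.00494) from a very low level, with a median of 0.407 CPM in control and 1.29 CPM at 1 Hz. Col20a1, a fibril-associated chain, was at 4.13, 4.97, and 7.12 CPM in control and at 6.40, 9.82, and 12.4 CPM at 1 Hz (0.85 ± 0.22 on the log2 scale, edgeR adjusted p = 0.00353). These groups overlapped. Col14a1 (0.05 ± 0.37 on the log2 scale) and Col16a1 (0.20 ± 0.25) were not called. The same held for Col7a1, the anchoring fibril chain of skin (-0.28 ± 0.14), Col8a1 (0.40 ± 0.23), Col9a3 (0.26 ± 0.46), Col17a1 (0.42 ± 0.28), and the fibrillar Col5a3 (0.49 ± 0.18) and Col11a2 (0.24 ± 0.21). With offsets for GC content and length, however, Col7a1 was called at 1 Hz.

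**Figure D3:**
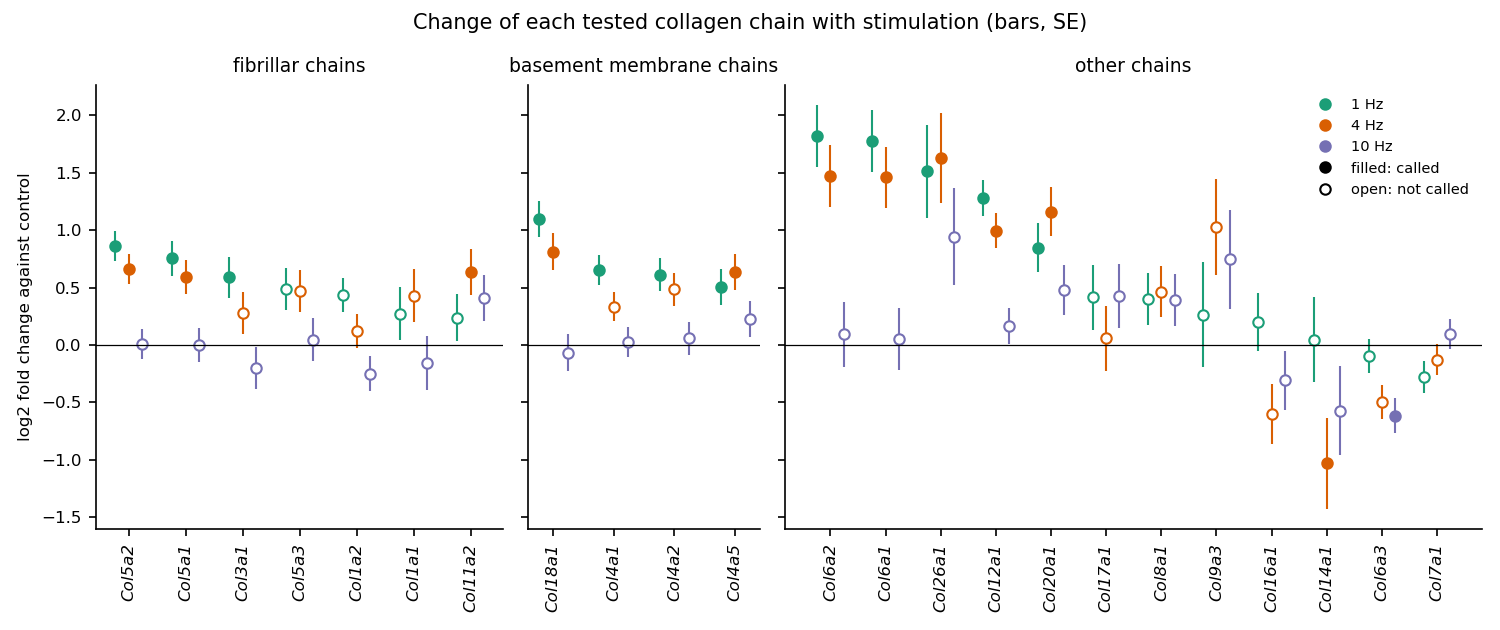
Log2 fold change of each of the 23 tested chains against control at 1, 4, and 10 Hz, by class, with bars for the SE. Filled points are called and open points are not, and the 10 Hz points lie near 0 for most chains that rose at 1 Hz.

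At 4 Hz, 10 chains were higher and 1 lower than in control. With the small RNA share as a covariate 0 chains were called, while over all genes 154 were called higher and 96 lower. Without the covariate 10.5% of all genes were called higher and 9.61% lower. The median log2 fold change was 0.48 over the tested chains and -0.01 over all genes. Higher calls comprised 3 of 7 fibrillar, 2 of 4 basement membrane, and 5 of 12 other chains. This comparison used the same 6 control libraries as that at 1 Hz, so the lists of changed chains are not independent.

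Type VI again moved unevenly at 4 Hz. Col6a1 was at 59.5, 107, and 186 CPM (log2 fold change 1.46 ± 0.27, edgeR adjusted p = 0.000123), and its lowest library overlapped the highest control library. Col6a2 was at 25.5, 40.6, and 77.7 CPM, with every library above control (1.48 ± 0.27 on the log2 scale, edgeR adjusted p = 0.000133). Col6a3 was at 72.9, 91.5, and 136 CPM, and its log2 fold change of -0.49 ± 0.15 (edgeR adjusted p = 0.0108) missed the fold limit. Scaling by library total called it lower, as did limma on log2(TPM + 1) and the fit with GC content and length offsets.

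Col18a1 was at 85.0, 117, and 170 CPM at 4 Hz, above every control library (0.81 ± 0.16 on the log2 scale, edgeR adjusted p = 0.000238). Col4a5 rose by 0.64 ± 0.15 (edgeR adjusted p = 0.00192), while Col4a1 (0.34 ± 0.13) and Col4a2 (0.48 ± 0.14) did not pass the fold limit. Col12a1 was at 68.7, 88.2, and 124 CPM with no overlap with control, and rose by 1.00 ± 0.16 on the log2 scale (edgeR adjusted p = 2.21e-05). Col5a2 was at 140, 168, and 217 CPM (0.66 ± 0.13 on the log2 scale, edgeR adjusted p = 0.000255). Col5a1 was at 220, 271, and 424 CPM (0.59 ± 0.15, edgeR adjusted p = 0.00257). Both chains overlapped control at 4 Hz, as did Col5a3, which was not called (0.47 ± 0.18, edgeR adjusted p = 0.0437). The Col5a1 call was lost without 4 Hz replicate 6 (0.46, edgeR adjusted p = 0.0101). Col3a1 (0.28 ± 0.18), Col1a2 (0.13 ± 0.15), and Col1a1 (0.43 ± 0.23) were not called.

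Col26a1 rose by 1.63 ± 0.39 on the log2 scale at 4 Hz (edgeR adjusted p = 0.00187), with a median of 1.23 CPM and no overlap with control. Col20a1 was at 7.54, 12.2, and 18.4 CPM, again with no overlap (1.16 ± 0.21 on the log2 scale, edgeR adjusted p = 0.000129). The fibrillar Col11a2 was at 6.90, 8.12, and 11.2 CPM in control and at 9.02, 13.6, and 17.9 CPM at 4 Hz, with overlap (0.63 ± 0.20 on the log2 scale, edgeR adjusted p = 0.0139). Col14a1, a fibril-associated chain, fell by 1.03 on the log2 scale (SE 0.40, edgeR adjusted p = 0.0408), from a median of 1.44 CPM in control to 0.544 CPM. At these counts the fall was fragile, and the call was lost on leaving out control replicate 3, 5, or 6 or any of 4 Hz replicates 1 to 5 (edgeR adjusted p of 0.0634 or more).

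At 10 Hz, 0 chains rose and 1 fell, against 1.24% of all genes called higher and 0.623% lower. The median log2 fold change was 0.06 over the tested chains and -0.01 over all genes. An unadjusted p below 0.05 was reached by 3 chains, and DESeq2 also called 1 chain lower and 0 higher. The chain that fell was Col6a3, at 79.9, 87.0, and 108 CPM against 96.7, 140, and 188 CPM in control, with overlap. It fell by 0.62 on the log2 scale (SE 0.15, edgeR adjusted p = 0.0173), and the call was lost without control replicate 2 (edgeR adjusted p = 0.058).

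Several of the chains that rose at 1 Hz had log2 fold changes near 0 at 10 Hz. Col6a1 was at 24.9, 36.8, and 62.8 CPM, with a log2 fold change of 0.06 and a 95% interval from -0.51 to 0.62. Col6a2 was at 10.9, 17.3, and 21.1 CPM (0.09 on the log2 scale, interval -0.49 to 0.68). Intervals this wide leave room for a change of either sign. For Col18a1 the log2 fold change was -0.07 (interval -0.40 to 0.27), for Col12a1 0.16 (-0.16 to 0.49), for Col5a1 0.00 (-0.31 to 0.31), and for Col4a1 0.02 (-0.25 to 0.29). Col26a1 and Col20a1 were not called but had intervals above 0, with log2 fold changes of 0.95 (0.07 to 1.82, edgeR adjusted p = 0.195) and 0.48 (0.03 to 0.94, edgeR adjusted p = 0.204). For Col20a1, 5 of the 6 libraries at 10 Hz lay above every control library.

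The direct comparison of 10 Hz with 1 Hz, in which control libraries entered only through the shared scaling, filter, and estimate of spread, called 11 chains lower and 0 higher at 10 Hz. Over all genes 8.49% were called lower and 9.45% higher. The median log2 fold change was -0.55 over the tested chains and 0.01 over all genes. Lower calls comprised 4 of 7 fibrillar, 3 of 4 basement membrane, and 4 of 12 other chains. Col6a2 fell by 1.73 (SE 0.26, edgeR adjusted p = 2.12e-05), Col6a1 by 1.72 (SE 0.26, 2.3e-05), Col18a1 by 1.16 (SE 0.16, 5.72e-06), and Col12a1 by 1.12 (SE 0.15, 6.93e-06) on the log2 scale. For Col1a2, Col3a1, Col4a1, Col4a2, Col5a1, Col5a2, Col6a1, Col6a2, Col12a1, and Col18a1 every 10 Hz library lay below every 1 Hz library. How many of all genes separated in this way was not counted. Col6a3 also fell, by 0.52 (SE 0.15, edgeR adjusted p = 0.00852), a call that was lost without 1 Hz replicate 4 or without 10 Hz replicate 1, 4, or 5. Offsets for GC content and length ended the calls of Col1a2, Col4a1, Col4a2, Col5a1, and Col6a3, and called Col7a1 higher. The median over the tested chains with these offsets was -0.24. With the small RNA share as a covariate 2 of the 11 calls were kept, at a median of -0.57. Over all genes that fit called 90 higher and 155 lower.

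Against 4 Hz, 7 chains were lower at 10 Hz and 0 were higher. Over all genes 5.64% were called lower and 5.32% higher, and the median log2 fold change was -0.42 over the tested chains and 0.01 over all genes. The chains called were Col6a1, Col6a2, Col18a1, Col12a1, Col5a1, Col5a2, and Col20a1. Col6a1 fell by 1.41 (SE 0.26, edgeR adjusted p = 0.000616) and Col18a1 by 0.88 (SE 0.16, edgeR adjusted p = 0.000433) on the log2 scale. Without 4 Hz replicate 5 the count of chains called was 11, and without 4 Hz replicate 6 it was 5. With the small RNA share as a covariate 0 chains and 0 of all genes were called, at a median of -0.41 over the tested chains.

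The 1 Hz and 4 Hz tissues were also compared directly. Of the tested chains 0 were higher and 1 was lower at 4 Hz, against 1.59% and 1.40% of all genes. The median log2 fold change was -0.20 over the tested chains and 0.00 over all genes. An unadjusted p below 0.05 was reached by 5 chains, and DESeq2 called 0 chains higher. The chain called was Col16a1, at 2.55, 3.97, and 7.11 CPM at 4 Hz and at 5.97, 7.27, and 12.3 CPM at 1 Hz (log2 fold change -0.80 ± 0.25, edgeR adjusted p = 0.0386). The call was lost without 1 Hz replicate 4 or 6 and without 4 Hz replicate 1, 2, 4, or 5 (edgeR adjusted p of 0.0581 to 0.123). The difference between these frequencies was -0.32 for Col6a1 (95% interval -0.84 to 0.21) and -0.28 for Col12a1 (-0.59 to 0.03) on the log2 scale.

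Ratios of TPM within a library do not depend on how libraries are scaled, and here they are given as a description with no test. The small RNA share also separated 1 Hz and 4 Hz from control, and its part in these ratios was not tested. Col6a3 over Col6a2 was 7.96 ± 1.91 in control (SD, n = 6), 1.99 ± 0.725 at 1 Hz, 2.16 ± 0.584 at 4 Hz, and 5.28 ± 2.10 at 10 Hz. The ranges were 6.39 to 11.3 in control, 1.54 to 3.41 at 1 Hz, 1.36 to 2.83 at 4 Hz, and 3.399 to 8.94 at 10 Hz, so the 1 Hz and 4 Hz libraries lay entirely below control and the 10 Hz libraries overlapped it. At 10 Hz this ratio was 8.94 in the library of the highest small RNA share and 3.99 in that of the lowest. In control it went the other way, with the lowest ratio, 6.39, in the library of the highest share. Col6a1 over Col6a2 had overlapping ranges in all conditions, with means of 2.65 ± 0.670, 2.53 ± 0.202, 2.52 ± 0.187, and 2.45 ± 0.434 in the same order. Col6a1 made up 3.45% ± 0.323 of the summed collagen TPM in control and 7.57% ± 1.16 at 1 Hz, and Col6a3 made up 10.4% ± 1.29 and 5.71% ± 0.822. Neither pair of ranges overlapped.

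The ratios of partners in the other trimers overlapped between conditions. Col4a1 over Col4a2 was 1.46 ± 0.227 in control, 1.57 ± 0.338 at 1 Hz, 1.56 ± 0.376 at 4 Hz, and 1.65 ± 0.205 at 10 Hz. Col5a1 over Col5a2 was 2.06 ± 0.326, 1.69 ± 0.0977, 1.73 ± 0.157, and 1.92 ± 0.354. Col1a1 over Col1a2 was 0.0965 ± 0.0127, 0.0823 ± 0.00989, 0.108 ± 0.0248, and 0.0989 ± 0.0229. In all 24 libraries Col1a1 was far below Col1a2, with ratios between 0.0575 and 0.142. Type III over type I, as Col3a1 over Col1a1, was 23.8 ± 5.44, 29.7 ± 7.49, 24.3 ± 5.93, and 24.7 ± 9.39.

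**Figure D4:**
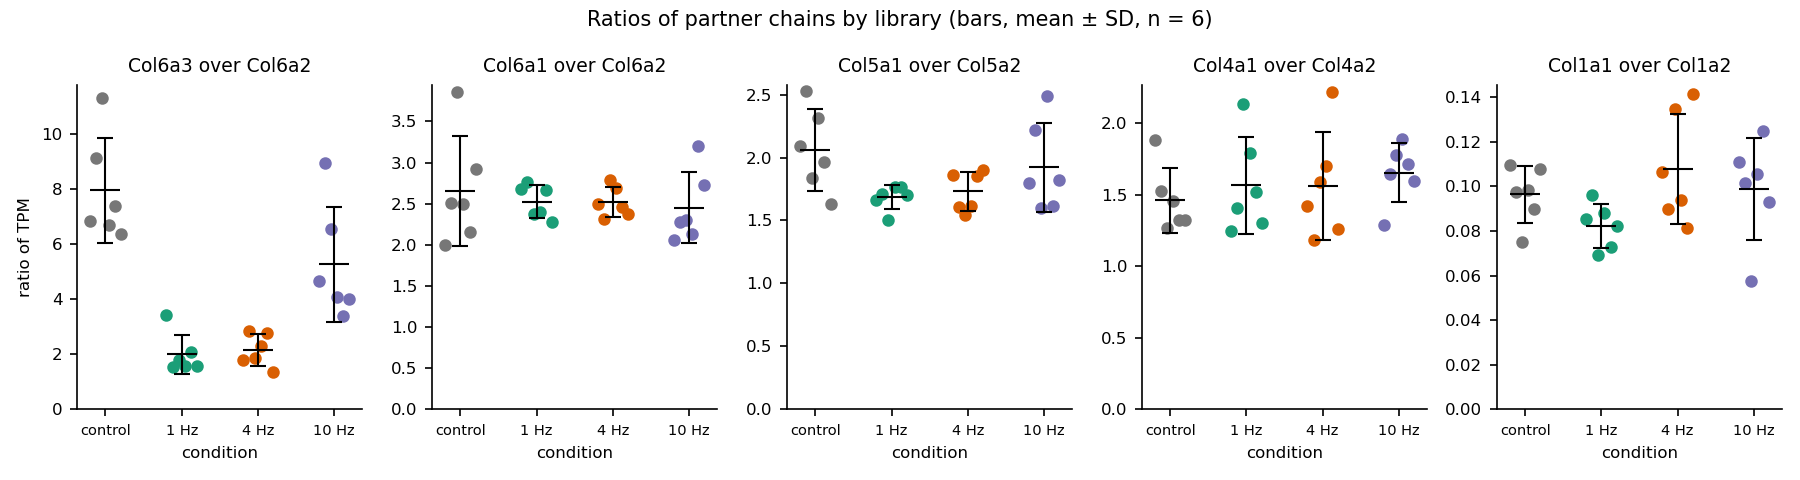
Ratios of TPM of partner chains in each library, with 6 points per condition and bars for the mean ± SD, each panel on its own axis from 0. The ratio of Col6a3 to Col6a2 separates 1 Hz and 4 Hz from control, as does the small RNA share, while the other 4 ratios overlap between conditions.

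Genes that act on collagen or on its transcription were counted in lists, tested in the same fit against the same control libraries. Over all genes, 9.34% were called higher and 8.99% lower at 1 Hz, 10.5% and 9.61% at 4 Hz, and 1.24% and 0.623% at 10 Hz, and each count is to be read against these shares. In the list for folding and hydroxylation, 5 of 18 tested genes rose at 1 Hz, 4 rose at 4 Hz, and 0 at 10 Hz, with 0 lower. P3h2, a prolyl 3-hydroxylase, rose by 1.07 ± 0.27 on the log2 scale at 1 Hz (edgeR adjusted p = 0.00313) and P4ha3, a prolyl 4-hydroxylase subunit, by 1.00 ± 0.29 (edgeR adjusted p = 0.00843). At 4 Hz they rose by 1.01 ± 0.27 and 1.18 ± 0.28. For export from the endoplasmic reticulum, 2 of 10 genes rose at 1 Hz, among them Sec31a, a coat protein of export vesicles (0.61 ± 0.08, edgeR adjusted p = 1.09e-05), with Sec24d the other. At 4 Hz 2 rose, Sar1b among them, and 1 fell, namely Klhl12, which helps to enlarge the vesicles for procollagen (-0.63 ± 0.09, edgeR adjusted p = 1.53e-05). At 10 Hz 0 of these genes were called. With 10 genes, the export counts were within about 1 gene of the shares over all genes.

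Of 10 tested cleavage and crosslinking genes 3 rose and 2 fell at 1 Hz, 1 rose and 2 fell at 4 Hz, and 0 were called at 10 Hz. The 4 Hz count was near the shares over all genes. Loxl1, a lysyl oxidase-like crosslinking enzyme, rose by 0.88 ± 0.18 at 1 Hz (edgeR adjusted p = 0.00052), as did Adamts2, which removes the amino-terminal propeptide (0.85 ± 0.29, edgeR adjusted p = 0.0253). Loxl2 fell by 1.03 (SE 0.14, edgeR adjusted p = 4.63e-06) and Pcolce2, an enhancer of propeptide cleavage, by 1.28 (SE 0.16, edgeR adjusted p = 1.44e-06) at 4 Hz. All these values are log2 fold changes against control.

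Collagen receptors bind the finished fibers, and proteases break them down. Of 6 tested receptors, 3 rose at 1 Hz, 2 at 4 Hz, and 1 at 10 Hz. Itga11, the α11 integrin subunit that binds fibrillar collagen, rose by 2.07 ± 0.39 at 1 Hz and by 1.86 ± 0.39 at 4 Hz on the log2 scale (adjusted p of 0.000237 and 0.000503 by edgeR), from a mean of 0.201 TPM in control. Mrc2, an endocytic collagen receptor, rose at 1 Hz (0.82 ± 0.16), Ddr2, a receptor tyrosine kinase for fibrillar collagen, at 4 Hz (0.64 ± 0.13), and Itga10 at 10 Hz (1.03 ± 0.30, edgeR adjusted p = 0.0455). Of 10 tested breakdown genes, 2 rose and 1 fell at 1 Hz, 1 rose and 1 fell at 4 Hz, close to the shares over all genes, and 0 were called at 10 Hz. Mmp2, a gelatinase that cuts type IV collagen, rose by 1.48 ± 0.17 at 1 Hz and by 0.96 ± 0.16 at 4 Hz (adjusted p of 1.23e-06 and 6.19e-05 by edgeR), with means of 97.4 TPM in control and 237 TPM at 1 Hz. Ctsk, a lysosomal collagenase, fell by 1.53 (SE 0.33) and 1.06 (SE 0.31).

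Transforming growth factor beta (TGF-β) is the best known inducer of collagen genes. Of 18 tested genes of its ligands, receptors, and mediators, 7 rose at 1 Hz with 0 lower, 4 rose and 1 fell at 4 Hz, and 0 were called at 10 Hz. Tgfbr3, the co-receptor betaglycan, rose by 1.78 ± 0.28 at 1 Hz and 1.17 ± 0.29 at 4 Hz, and Creb3l1, a transcription factor of collagen secretion, by 1.01 ± 0.18 and 1.03 ± 0.18 on the log2 scale. The medians over the list were 0.34, 0.22, and -0.06 at 1, 4, and 10 Hz.

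Markers of cell types are counted against the same shares over all genes. Of 11 muscle fiber markers, 8 rose at 1 Hz, 8 at 4 Hz, and 2 at 10 Hz, with 0 lower, and Myh3, the embryonic myosin, rose by 1.23 ± 0.19, 1.26 ± 0.19, and 0.82 ± 0.19 on the log2 scale. Of 6 myoblast markers, 3 rose at 1 Hz, 2 rose and 1 fell at 4 Hz, and 0 were called at 10 Hz. Of 3 tested fibroblast markers, Pdgfrb rose at 1 Hz (1.38 ± 0.35) and 4 Hz (1.81 ± 0.34) and Dcn fell at 4 Hz (-0.59 ± 0.17), while the summed list was 26.6 to 61.5 TPM in control and 34.3 to 49.2 TPM at 1 Hz, with overlap. Of 3 tested smooth muscle markers, Acta2 and Tagln rose at 1 and 4 Hz and 0 were called at 10 Hz. Both are also made by immature muscle. Of the rest of that list, Myh11 had a mean of at most 0.115 TPM in any condition. Cnn1 had condition means of 0.552 to 1.53 TPM, and Lmod1, tested and not called, of 2.67 to 3.69 TPM. Scx, of tendon cells, rose at all 3 frequencies, with Tnmd at 0 in all libraries and Mkx at a mean of at most 0.610 TPM in any condition. Sox9, of cartilage cells, rose at 1 Hz, with Acan at a mean of at most 0.0228 TPM and Comp of at most 0.629 TPM in any condition. Of 5 proliferation markers, 2 rose at 4 Hz and 0 at 1 Hz or 10 Hz. The 1 Schwann cell marker tested was not called, of 2 macrophage markers only Csf1r fell at 4 Hz, and 0 endothelium or adipocyte markers could be tested. The part of these cell types in the collagen result was not tested.

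The share of small RNA differed between the same groups as the chains, and its relation to the chains within a group differed from group to group. At 10 Hz, where the share ran from 38.4 to 272 CPM, Col6a1 was at 24.9 CPM in the library of the highest share and at 58.4 CPM in that of the lowest. Col12a1 at 10 Hz was higher in each library of lower share. From the highest share to the lowest it was at 38.9, 40.3, 47.4, 52.4, 65.0, and 70.5 CPM. In control the library of the highest share, 169 CPM, had the highest Col6a1 value, 62.8 CPM, and at 1 Hz the library of the highest share, 70.6 CPM, had the lowest, 73.8 CPM. At 4 Hz the library of the highest share, 50.9 CPM, had a high Col6a1 value, 140.5 CPM, and the highest Col12a1 value, 124 CPM. With the log2 share as a covariate in the edgeR fit, 0 chains were called at 1 Hz or 4 Hz against control. Over all 13318 genes 1 was called higher and 0 lower at 1 Hz, and 154 higher and 96 lower at 4 Hz. That fit called 2 chains at 10 Hz against 1 Hz, with 90 of all genes called higher and 155 lower. It called 0 chains and 0 of all genes at 10 Hz against 4 Hz. In that fit the log2 fold change of Col6a1 at 1 Hz was 1.10 ± 0.41 (edgeR adjusted p = 0.30) and that of Col12a1 0.74 ± 0.21 (edgeR adjusted p = 0.194), both smaller than without the covariate, while Col4a1 was at 0.64 ± 0.21 (edgeR adjusted p = 0.254). The median over the 23 tested chains was close to that without the covariate, at 0.56 for 1 Hz and 0.49 for 4 Hz against control, -0.57 for 10 Hz against 1 Hz, and -0.41 for 10 Hz against 4 Hz. Since the shares at 1 and 4 Hz did not overlap control, the frequency and the share cannot be told apart in these 2 comparisons.

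**Figure D5:**
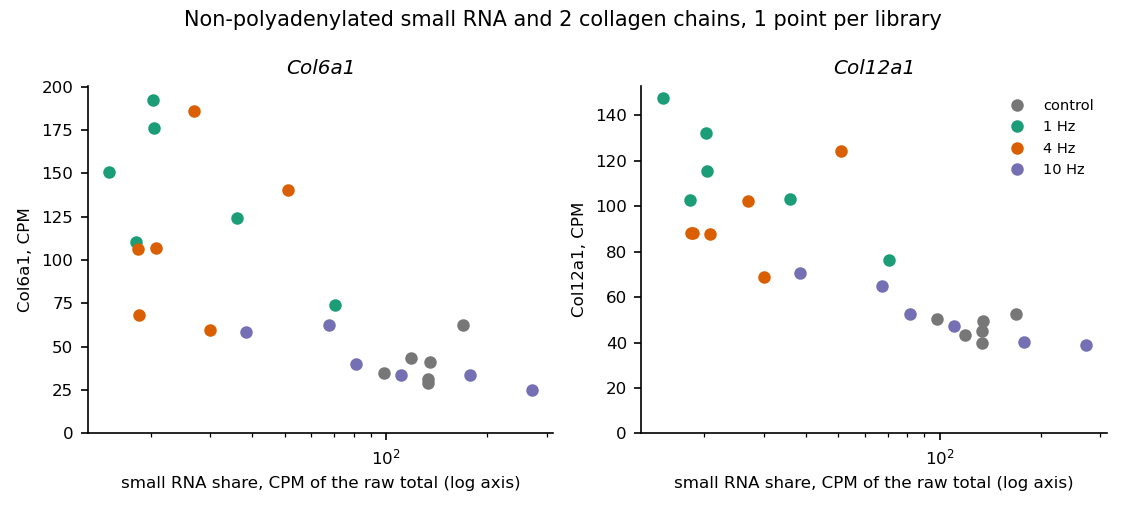
Share of non-polyadenylated small RNA (horizontal log axis, CPM of the raw total) and the CPM of Col6a1 (left) and Col12a1 (right), with 1 point per library in the color of its condition. The 1 Hz and 4 Hz libraries lie at low share and high collagen, and the control libraries at higher share and lower collagen, with 10 Hz libraries spread from 38.4 to 272 CPM of share.

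The choice of unit and model changed many calls at 4 Hz against control. On log2(TPM + 1) the median of all genes with a mean of at least 1 TPM was -0.16 at 4 Hz and -0.06 at 1 Hz. In that limma fit 3 chains were called higher at 4 Hz, namely Col6a1, Col6a2, and Col20a1, and 2 lower, Col6a3 and Col7a1, and the calls of Col12a1, Col18a1, Col4a5, Col5a1, Col5a2, and Col11a2 were lost (Col14a1 and Col26a1 were under the 1 TPM minimum). That fit differed from the reported one in scaling, model, and filter together. Scaling by library total alone called 12 chains at 4 Hz with Col5a1 lost and Col6a3 and Col16a1 gained. Over all genes at 4 Hz limma on log2(TPM + 1) called 677 higher and 2057 lower and scaling by library total 1012 and 1821, against 1396 and 1280 with TMM. At 1 Hz 9 of the 12 calls were kept, without Col26a1, Col3a1, and Col4a5. Some reads cannot be assigned to 1 chain with certainty, since the kit was directional but the strand setting used in counting is not given in the sources used here. Exons of another gene on the opposite strand cover 12.7% of the exon bases of Col18a1 (Slc19a1), and the Col4a1 and Col4a2 exons overlap others over 4.94% and 4.93%. Col6a1, Col6a2, and Col6a3 had no such overlap.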

How the data were processed

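RNA-seq was analysed in 24 libraries of ChR2::tdTomato C2C12 tissue, 6 for each of 4 conditions, grouped by sample title. The study describes the 6 tissues per condition as biological replicates. The authors selected poly(A) RNA, or depleted ribosomal RNA where input was low, and ran the nf-core/rnaseq pipeline on GRCm39. The submitters' processing notes also list STAR, Salmon, BWA 0.7.12-r1039, and bedtools 2.25.0, with no order. The deposited tables hold salmon estimated counts (expected counts, not normalized) and TPM, which the authors scaled per library, for 56941 genes.

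Counts were rounded, genes were kept with filterByExpr (13318 genes, 99.8% of counts), and all 24 libraries were fitted with TMM scaling in 1 edgeR 4.0.16 quasi-likelihood model (limma 3.58.1, R 4.3.3) by condition. P-values were adjusted by Benjamini-Hochberg across the 13318 genes, with calls at adjusted p below 0.05 and absolute log2 fold change above 0.5. SEs came from the F statistic. The study used DESeq2, run here (1.42.0) as an alternative. Other alternatives were size factors, library totals, no filter, limma on log2(TPM + 1) and log2(TPM + 0.1), the 12 compared libraries, a replicate block, adjusted p alone, small RNA share as covariate, GC content and length offsets (lowess span 0.3), and leaving out each library. On the log2(TPM + pseudocount) scale the change of low genes is understated. The fits were tested on simulated data.

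Chains named are the 4 highest of each class by mean TPM, Col1a1, Col3a1, Col4a1, Col6a1 and their partners, and the 3 called chains of largest change each way in each comparison, 16 in all. Col20a1, Col11a2, Col5a3, Col7a1, Col8a1, Col9a3, Col17a1, and the untested chains are named outside that rule, after their values were seen. Of the collagen-related lists, up to 2 called genes of largest change per comparison are named, and Ptprc, Adgre1, and other absent or low markers were named after their values were seen. The chains and lists were chosen with earlier results of these data known. Replicates shared a number in the titles. Same-numbered libraries had a median correlation of 0.02, and no block was used in the reported fit. No libraries agreed within sampling noise (lowest chi-square per gene 3.31 over 60 pairs). Counting error is set by 4.09 to 15.19 Mcounts (mega counts) per library. Positions came from GENCODE M39, promoter sequences from RefSeq. Protein sequences and the channelrhodopsin transgene were not analysed here.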

Additional observations from a re-analysis of the deposited data

Results flagged for a closer look

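In 6 of 88 groups of 6 libraries (22 chains and ratios over 4 conditions), 1 library lay far from the other 5, a distance that chance gives in about 1 in 20 groups. Col5a2 reached 153 CPM in control replicate 6, with the other control libraries at 91.6 to 107 CPM, and the 1 Hz libraries began at 156 CPM. Col1a1 was at 9.70 CPM in 10 Hz replicate 3, against 16.6 to 20.4 CPM in the others. Col14a1 was at 1.68 CPM in 4 Hz replicate 6, against at most 0.637 CPM, and Col16a1 at 12.3 CPM in 1 Hz replicate 4, against at most 7.96 CPM. The ratio of Col6a3 to Col6a2 was 3.41 in 1 Hz replicate 1, where the others were at 1.54 to 2.07, and that library also had the highest small RNA share at 1 Hz (70.6 CPM). The ratio of Col3a1 to Col1a1 was 45.0 in 1 Hz replicate 3, the library of the largest total count, against 26.1 to 27.1.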

How the results depend on the processing

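The number of called chains stayed within 1.5 times of the reported count in 60 of 72 comparisons with an alternative other than leaving out a library. The exceptions were as follows. With the small RNA share as a covariate the counts were 0 at 1 Hz and 0 at 4 Hz against control, 2 at 10 Hz against 1 Hz, and 0 at 10 Hz against 4 Hz. On log2(TPM + 1) and log2(TPM + 0.1) with a mean of at least 1 TPM the count at 4 Hz was 5, and without that filter it was 4. In these 3 fits it was 0 for 4 Hz against 1 Hz. GC content and length offsets gave 7 at 10 Hz against 1 Hz, of which 6 were among the reported calls. The cause was not tested. With the replicate block the count for 4 Hz against 1 Hz was 2, and the other counts were 13 at 1 Hz, 11 at 4 Hz, and 1 at 10 Hz against control, 11 for 10 Hz against 1 Hz, and 8 for 10 Hz against 4 Hz. Same-numbered libraries had correlations of -0.18 to 0.36, of which 10 of 36 were above 0.1. Libraries of different number were not compared in this way, so these values cannot show whether the numbers pair the tissues. Leaving out each library gave 11 to 15 calls at 1 Hz, 10 to 14 at 4 Hz, and 0 to 1 at 10 Hz against control, 0 to 3 for 4 Hz against 1 Hz, 9 to 12 for 10 Hz against 1 Hz, and 5 to 11 for 10 Hz against 4 Hz. The 0 at 10 Hz came without control replicate 2, and the 3 for 4 Hz against 1 Hz without 4 Hz replicate 6. Called changes of the named chains against control did not change sign under any alternative. Among changes that were not called, 31 of the 303 values that stayed uncalled under these alternatives and 27 of 634 on leaving out a library had the opposite sign. Chains of under about 2 CPM, such as Col14a1 and Col26a1, are limited by depth.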
